A study of Mus musculus with 6 samples.

Results

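The genes described here are 41 writers and erasers of histone lysine methylation: 20 lysine methyltransferases or SET-domain relatives, the 4 shared core subunits of the COMPASS complexes with menin, and 16 lysine demethylases. They were taken by name from a list. Ensembl identifiers of the expression tables were paired with mouse symbols, and all 41 were found among 22380 identifiers. Bulk poly(A)+ RNA of 6 mouse embryonic stem cell (mESC) lines was measured by Smart-Seq2. The 3 *Ctrl* lines carried *CreERT2; Rosa26-LSL-H2b-Egfp*, and the 3 *Tet iTKO* lines carried in addition floxed alleles of *Tet1*, *Tet2* and *Tet3* on both chromosomes. Every line came from an embryo of its own, on a C57BL/6 background, so the spread between lines of a group is one between separately derived lines. The *CreERT2* transgene was driven by the human ubiquitin C promoter, and both genotypes received tamoxifen (1 µM for 2.5 days) and 4 more days of culture, so that Cre acted in the controls too. Cells grew under 2i conditions, in which inhibitors of GSK3 and MEK hold mESC in the ground state, on mouse embryonic fibroblast feeders. At day 6.5, live CD326+ GFP+ Thy1.2- cells were sorted, a gate that keeps cells in which Cre had removed the stop cassette of the reporter and leaves out feeders. The comparison asks how expression of each of these genes differed once the TET enzymes, which oxidise 5-methylcytosine in DNA, had been deleted. Because the samples were bulk RNA, fewer cells that express a gene and less of its RNA per cell cannot be told apart.

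As background, lysine methylation of histones marks the state of a gene: methylation of H3K4 lies at promoters and enhancers, that of H3K36 and H3K79 over transcribed bodies, and that of H3K9, H3K27 and H4K20 largely over silent chromatin. SET-domain enzymes and the non-SET enzyme DOT1L place these marks. The H3K4 enzymes of the KMT2 and SETD1 families work inside COMPASS complexes, around a shared core of WDR5, ASH2L, RBBP5 and DPY30. Removal falls to the flavin-dependent KDM1 enzymes and to the Jumonji (JmjC) enzymes, dioxygenases that, like the TET proteins themselves, need iron and 2-oxoglutarate.

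The values are normalized counts, that is reads per gene divided by a size factor of the library and rounded to whole numbers. They summed to between 4210784 and 4219665 in *Ctrl* and between 3964824 and 3996522 in *Tet iTKO* libraries, with 13431 to 13539 and 14024 to 14363 genes above 0. Reads of the floxed exons cannot be told from those of the rest of a gene here. Over the whole gene, *Tet1* stood at 696, 682 and 716 normalized counts in *Ctrl* against 787, 895 and 753 in *Tet iTKO* lines, and *Tet2* at 249, 170 and 230 against 233, 268 and 211. *Tet3* stood at 28, 13 and 13 against 10, 3 and 3. The files therefore do not check the deletion of *Tet1* and *Tet2*. Of 11 mESC markers, 10 were abundant enough to test and *Fut4* was near 0. Of these, 3 were called higher (*Esrrb*, *Klf4* and *Epcam*) and 4 lower (*Pou5f1*, *Nanog*, *Zfp42* and *Dppa5a*). After the correction described with gene length, *Pou5f1* and *Epcam* kept their calls and *Esrrb*, *Klf4*, *Nanog* and *Zfp42* lost theirs. *Dppa5a* was then called higher (0.15, limma adjusted p = 0.0013), and *Tfcp2l1* and *Utf1* lower (-0.45 and -0.13, limma adjusted p = 4.2e-05 and 0.028). The sum of the 11 markers, in which *Dppa5a* is the most abundant, was 26332 to 26659 in *Ctrl* and 22204 to 23216 in *Tet iTKO* lines. Of 14 fibroblast markers 5 were tested, and *Col1a1*, *Col1a2* and *Col3a1* were called higher in *Tet iTKO* lines, while 5 of the 14 had a mean of at most 3 in both groups. After the correction these collagens kept their calls (0.44, 0.86 and 1.13, limma adjusted p = 0.0075, 0.0093 and 0.003). *Col5a2* was not called, nor was the gated marker *Thy1*, at 30, 46 and 41 against 47, 35 and 23. Among those too low to test, *Lum*, *Dcn*, *Pdgfrb*, *Prrx1* and *S100a4* had lower means in *Tet iTKO* lines and *Col6a3*, *Postn*, *Pdgfra* and *Twist1* higher ones. The list summed to 286 to 319 in *Ctrl* and 514 to 584 in *Tet iTKO* lines, with *Col1a1* the largest part (means 167 and 311). The part of these marker differences in the results below was not tested.

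A gene was called higher or lower when limma, fitted over all 10524 genes with a mean of at least 10 normalized counts on the log2(normalized count + 1) scale, gave a Benjamini-Hochberg adjusted p under 0.05. Of the 41 genes 40 reached that mean, *Phf2* being the exception. *Setd7* reached it only through its *Tet iTKO* lines (means 6.33 in *Ctrl* and 35.3 in *Tet iTKO*), which limits its calls below. Among the 40, 13 were called higher and 4 lower in *Tet iTKO* lines, 42.5% in all, where 34.8% of all genes tested were called (16.4% higher and 18.4% lower). The differences were mostly upwards. Of the 40 log2 fold changes (log2FC, *Tet iTKO* minus *Ctrl*), 32 were above 0, and their median was 0.32 beside 0.01 over all genes tested. The 3 values of each group did not overlap for 24 of the 40 genes tested, 18 higher and 6 lower, where 44.1% of all genes tested had groups that did not overlap (21.2% higher and 22.9% lower). With 3 lines against 3, an exact two-sided permutation test of a gene by itself cannot give a p below 0.1, so calls rest on the fit across all genes. The libraries do not mark strand, and exons of *Kmt2a*, *Kmt2c*, *Kmt5b*, *Smyd2*, *Kdm3b*, *Kdm6b*, *Kdm7a* and *Phf2* overlap non-coding or unassigned transcripts on the other strand by 8 to 3468 bases, the most in *Kdm3b*. Overlaps of *Setd7* and of genes that share exons with a protein-coding gene are given where they are described.

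**Figure D1:**
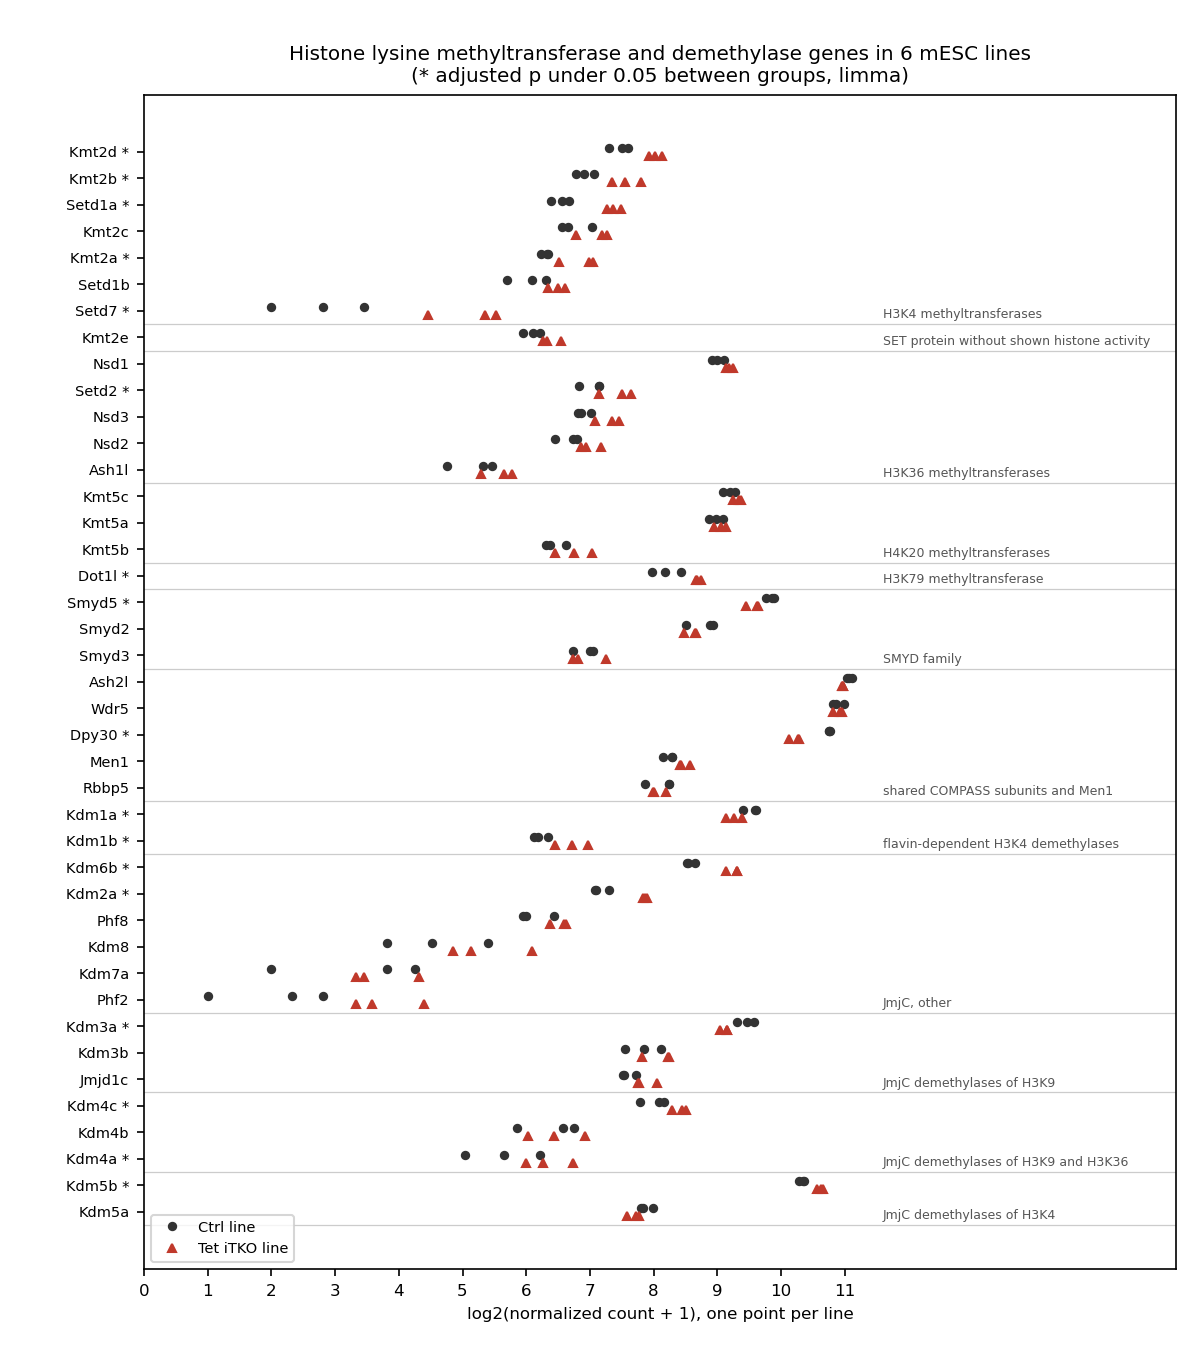
Log2(normalized count + 1) of the 41 genes in each of 6 mESC lines (horizontal axis), grouped by role, with 1 point per line (circles, *Ctrl*; triangles, *Tet iTKO*) and an asterisk on the 17 genes called by limma. Levels of different genes are not per length here. The triangles of *Kmt2d*, *Kmt2b*, *Setd1a* and *Setd7* all lie to the right of the circles, and those of *Dpy30*, *Smyd5* and *Kdm3a* to the left, though *Kmt2d* and *Dpy30* changed sign (-0.21 and 0.01) once values were corrected for GC content and transcript length.

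These genes are long, and in these libraries long genes ran higher in *Tet iTKO* lines as a whole. The longest annotated transcript had a median of 6487 bases among the 41 genes, against 3352 bases among the 10457 genes tested that have a length and a GC content in the annotation. Of the 40 genes tested, 19 fell among the longest 10% of those. Across genes, which are not independent replicates, the log2FC rose with length (Spearman's rho 0.29 over 10457 genes and 0.41 over the 40) and with GC content (0.26 and 0.29). The median log2FC was -0.32 among the shortest 10% of genes (204 to 1421 bases) and 0.23 in the longest (6714 to 123179 bases). After each library's trend on GC content and length was removed, rho with length was -0.01 over all genes and 0.03 over the 40. With GC content it was 0.04 over all genes and -0.21 over the 40, so among these genes a GC relation of the other sign remained. Under this correction 3 of the 40 genes were called higher (*Setd7*, *Kdm2a* and *Kdm4c*) and 4 lower (*Kdm1a*, *Kdm3a*, *Kdm5a* and *Smyd5*), 17.5% in all, where 26.5% of the 10457 genes were called (12.5% higher and 14% lower). Their median log2FC was then 0.05, with 26 of 40 above 0. Thus 6 genes were called in the same direction both ways, 11 before the correction alone and *Kdm5a* after it alone, and both values are given below for the 40 genes.

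**Figure D2:**
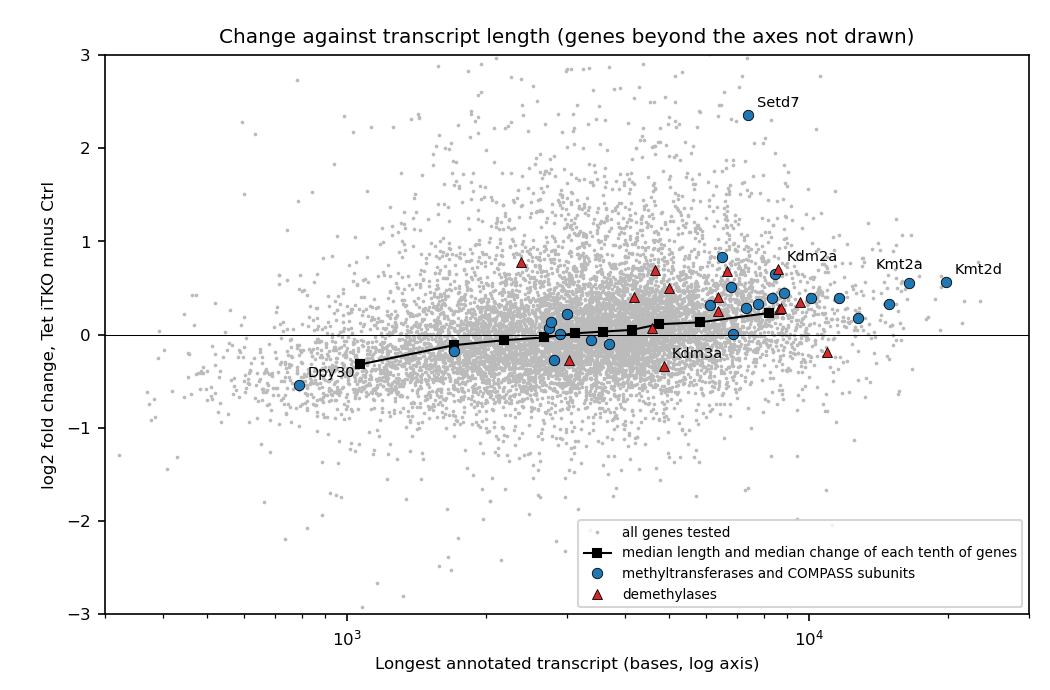
Log2FC between *Tet iTKO* and *Ctrl* lines (vertical axis) against the length of the longest annotated transcript in bases (log axis). Grey points are all genes tested, black squares the medians of successive bins of 10% of genes by length, blue circles the methyltransferases with the COMPASS subunits and red triangles the demethylases. The squares climb from -0.32 to 0.23, *Kmt2a* and *Kmt2d* sit at the long end, *Dpy30* at the short end, and *Setd7* lies at 2.36, far above the squares.

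**Figure D3:**
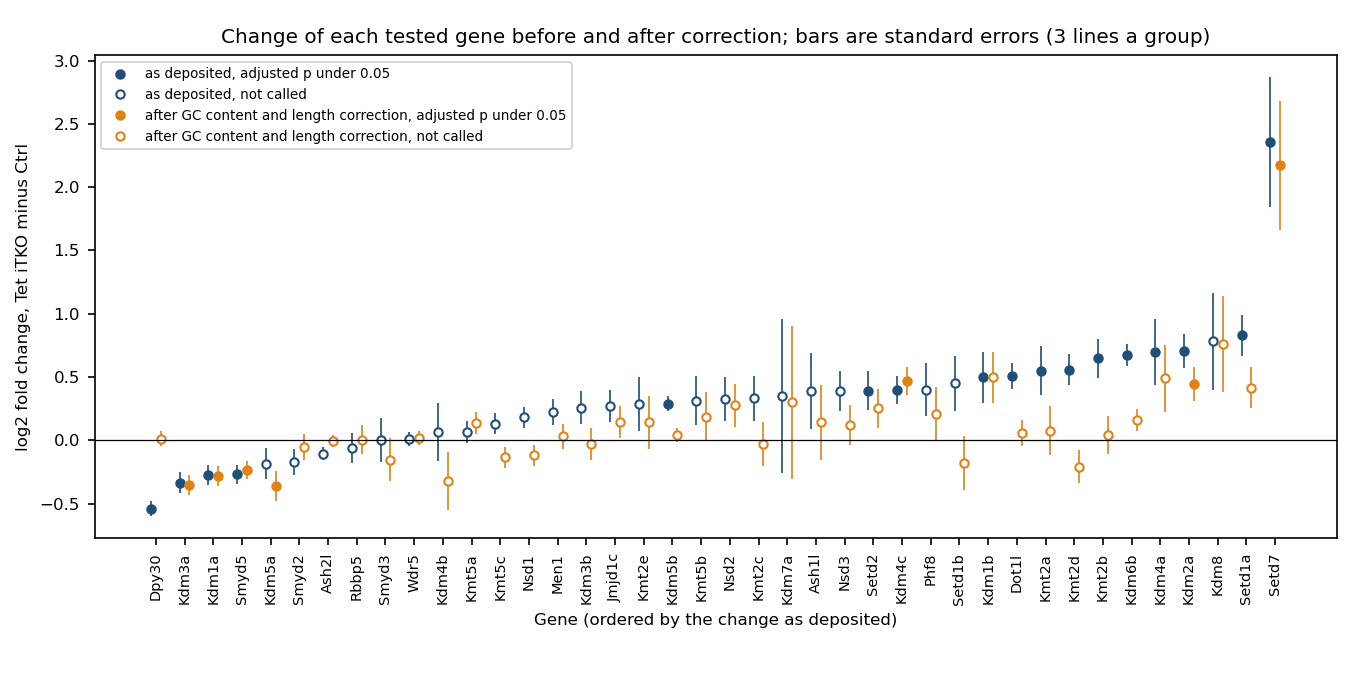
Log2FC of each of the 40 genes tested on the values as deposited (blue) and after the GC content and length correction (orange), with standard errors from limma (3 lines a group) and filled points where the adjusted p was under 0.05. Of the 13 filled blue points to the right, 10 have an open orange partner, which lies between 0.04 and 0.08 for *Kmt2a*, *Kmt2b*, *Dot1l* and *Kdm5b*, at -0.21 for *Kmt2d* and at 0.42 to 0.50 for *Setd1a*, *Kdm4a* and *Kdm1b*, while *Setd7*, *Kdm2a* and *Kdm4c* stay filled above 0 and *Kdm3a*, *Kdm1a* and *Smyd5* below it.

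Promoters are shown for the genes called in the same direction both ways, because CpG dinucleotides are the sites at which TET enzymes act. RefSeq windows of 300 bases (GRCm38.p6, 250 before to 50 after an annotated transcription start) matched 27 of the 41 genes, and *Kdm2a* was not among them. Printed 5′ to 3′ on the strand of the gene, with each CG in capitals, they read as follows.
Setd7 (chr3:51560774-51561073, minus strand): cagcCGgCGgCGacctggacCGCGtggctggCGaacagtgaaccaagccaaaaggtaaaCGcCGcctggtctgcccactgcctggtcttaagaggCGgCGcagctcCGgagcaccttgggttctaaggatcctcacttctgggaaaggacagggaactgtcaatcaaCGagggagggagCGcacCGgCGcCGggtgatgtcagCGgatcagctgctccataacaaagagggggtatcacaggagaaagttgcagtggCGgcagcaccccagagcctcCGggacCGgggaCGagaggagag
Kdm4c (chr4:74251629-74251928, plus strand): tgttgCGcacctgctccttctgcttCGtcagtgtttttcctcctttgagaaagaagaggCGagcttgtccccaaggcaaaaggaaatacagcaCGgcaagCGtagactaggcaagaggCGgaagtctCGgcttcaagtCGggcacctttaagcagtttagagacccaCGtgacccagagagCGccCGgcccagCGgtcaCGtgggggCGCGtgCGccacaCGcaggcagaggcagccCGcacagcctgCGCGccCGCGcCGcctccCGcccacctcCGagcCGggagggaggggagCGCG
Kdm1a (chr4:136602674-136602973, minus strand): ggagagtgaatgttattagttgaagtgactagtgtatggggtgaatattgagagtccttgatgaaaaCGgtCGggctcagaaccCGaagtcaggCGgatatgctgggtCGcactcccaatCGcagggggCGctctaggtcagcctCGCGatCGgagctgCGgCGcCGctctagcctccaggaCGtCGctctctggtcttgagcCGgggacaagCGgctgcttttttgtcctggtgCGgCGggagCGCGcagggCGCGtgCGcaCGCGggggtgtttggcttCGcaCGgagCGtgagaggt
Kdm3a (chr6:71632637-71632936, minus strand): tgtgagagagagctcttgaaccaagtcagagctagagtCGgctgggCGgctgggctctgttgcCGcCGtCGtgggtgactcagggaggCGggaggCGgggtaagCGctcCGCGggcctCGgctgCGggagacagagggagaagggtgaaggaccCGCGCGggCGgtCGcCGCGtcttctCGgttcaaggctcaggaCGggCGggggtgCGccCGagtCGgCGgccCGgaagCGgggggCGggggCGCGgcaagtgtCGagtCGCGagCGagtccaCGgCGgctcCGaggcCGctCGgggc
Smyd5 (chr6:85431726-85432025, plus strand): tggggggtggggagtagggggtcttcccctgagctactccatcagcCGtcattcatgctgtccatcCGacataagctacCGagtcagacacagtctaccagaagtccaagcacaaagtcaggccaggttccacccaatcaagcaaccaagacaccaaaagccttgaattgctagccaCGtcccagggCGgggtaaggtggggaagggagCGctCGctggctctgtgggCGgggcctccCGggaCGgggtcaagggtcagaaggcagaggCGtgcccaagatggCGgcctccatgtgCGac
The windows of *Setd7*, *Kdm4c*, *Kdm1a*, *Kdm3a* and *Smyd5* hold 21, 28, 29, 40 and 13 CG dinucleotides. *Kdm4c* has 2 RefSeq starts and *Kdm3a* 3, and for such genes the window with the most CG was taken here and in all counts. The last 20 bases of the *Kdm4c* window are in none of the GENCODE M21 transcripts of that gene, unlike those of the other windows shown. All 27 windows held at least 10 CG (13 to 65, median 29), against 90.5% of the 8334 genes tested with a window (median 23) and 45.8% of all 27025 genes with one (median 8). Those of *Setd7* and *Smyd5* hold fewer CG than the median of the genes tested. Methylation of the windows was not measured in these files.

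The 7 H3K4 methyltransferases all had higher means in *Tet iTKO* lines as deposited, though 4 of 7 did after correction. As deposited 5 were called higher, *Setd7* with the largest change, where 16.4% of all genes tested were called higher. After correction 1 of the 7, *Setd7*, was called higher, where 12.5% of all genes were. *Setd7* (ENSMUSG00000037111.8), which places a single methyl group on H3K4 and on many other proteins, stood at 3, 6 and 10 in *Ctrl* against 45, 21 and 40 normalized counts in *Tet iTKO* lines. In *Ctrl* replicate 1 the gene was at the 3 normalized counts taken as the detection floor and it was low in all 3 *Ctrl* lines, and every *Tet iTKO* line lay above every *Ctrl* line. With a *Ctrl* mean of 6.33 and a *Tet iTKO* mean of 35.3 it reached the mean of 10 needed for testing through the *Tet iTKO* lines, and its exons share 131 bases with 5031434O11Rik on the other strand. Its log2FC was 2.36 ± 0.51 (limma, ± standard error here and below, adjusted p = 0.00037). After correction it was 2.17 ± 0.51 (limma adjusted p = 0.0012). It was called in all 6 fits that left out a line, before and after correction, at 1.98 to 2.71 and 1.79 to 2.51. In these fits too the gene passed the filter through *Tet iTKO* lines, so they are no separate support.

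*Setd1a* (ENSMUSG00000042308.8), a catalytic subunit of the complex that places most trimethylation of H3K4 at promoters, stood at 83, 101 and 93 in *Ctrl* against 163, 153 and 178 normalized counts in *Tet iTKO* lines. Its log2FC of 0.83 ± 0.16 (limma adjusted p = 0.00011) was the largest of the 6 COMPASS methyltransferases, and after correction it was 0.42 ± 0.16 (limma adjusted p = 0.053), passing only without *Ctrl* replicate 2 (0.48, limma adjusted p = 0.044). In GENCODE M21 a read-through gene on the same strand shares 3523 exonic bases with *Setd1a*, so reads there belong to either. *Setd1b*, its paralog, was at 65.3 ± 13.6 and 88.7 ± 8.50 (SD, n = 3 each) and was not called before (0.45, limma adjusted p = 0.1) or after correction (-0.18, limma adjusted p = 0.59).

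*Kmt2b* (ENSMUSG00000006307.9), the enzyme of bivalent promoters in mESC, stood at 119, 109 and 133 in *Ctrl* against 162, 187 and 221 normalized counts in *Tet iTKO* lines, with a log2FC of 0.65 ± 0.15 (limma adjusted p = 0.00095). *Kmt2d* (ENSMUSG00000048154.7), an enzyme that monomethylates H3K4 at enhancers, stood at 180, 192 and 157 against 243, 258 and 279 and changed by 0.56 ± 0.13 (limma adjusted p = 0.00055). *Kmt2a* (ENSMUSG00000002028.6), the MLL protein of the trithorax group, stood at 79, 74 and 80 against 131, 126 and 90 and changed by 0.55 ± 0.19 (limma adjusted p = 0.024). In all of them the groups did not overlap, although *Tet iTKO* replicate 3 was close to *Ctrl* for *Kmt2a*. After correction none was called, at 0.04 for *Kmt2b* (limma adjusted p = 0.87), -0.21 for *Kmt2d* (limma adjusted p = 0.25) and 0.08 for *Kmt2a* (limma adjusted p = 0.81). Corrected, *Kmt2d* was called lower without *Ctrl* replicate 3 (-0.36, limma adjusted p = 0.044). The call of *Kmt2a* also ended without *Ctrl* replicate 2, *Tet iTKO* replicate 1 or *Tet iTKO* replicate 2 (0.52, 0.45 and 0.48) and in limma without its variance trend (adjusted p = 0.059). *Kmt2c*, the other enhancer enzyme, had groups that overlapped and a log2FC of 0.33 (limma adjusted p = 0.15), or -0.03 after correction. Summed, the 7 genes stood at 645, 653 and 640 in *Ctrl* against 977, 979 and 1014 normalized counts in *Tet iTKO* lines, and their median log2FC was 0.56 before and 0.04 after correction. *Kmt2e*, a SET protein without a shown histone activity, was at 67.3 ± 6.03 and 82.3 ± 8.50 (SD, n = 3 each) and was not called (0.29, limma adjusted p = 0.32, and 0.14 after correction). Its exons overlap those of *Srpk2* on the other strand by 972 bases.

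Of the 4 shared COMPASS subunits and menin, none was called higher and *Dpy30* alone was called lower. Over all genes tested, 16.4% were called higher and 18.4% lower. The median log2FC of these subunits and menin was -0.06 before and 0.01 after correction. Its difference from that of the H3K4 methyltransferases was not tested. *Dpy30* (ENSMUSG00000024067.7), the small subunit that raises the activity of the core, stood at 1753, 1730 and 1732 in *Ctrl* against 1245, 1236 and 1111 normalized counts in *Tet iTKO* lines, with a wide gap between groups beside the spread within them. The log2FC was -0.54 ± 0.06 (limma adjusted p = 5e-09), and all 6 fits without a line called it (-0.57 to -0.49). With a longest transcript of 789 bases *Dpy30* lies among the shortest 10% of genes. After the correction for GC content and length together its value was 0.01 ± 0.06 (limma adjusted p = 0.9), while under correction for length alone it was still called lower. *Ash2l*, the subunit that activates the SET domain together with RBBP5, had the highest normalized counts of the list, 2143, 2209 and 2096 in *Ctrl* against 1978, 2015 and 2007, groups that did not overlap but differed by -0.10 on the log2 scale (limma adjusted p = 0.12), or by 0.03 under quantile normalization. Under correction for length alone *Ash2l* was called lower (-0.13, limma adjusted p = 0.049). *Wdr5*, the adaptor of these complexes, stood at 1870, 2024 and 1800 against 1935, 1993 and 1804 (0.01, limma adjusted p = 0.92). *Rbbp5*, the least abundant of the core, stood at 302, 303 and 233 against 293, 252 and 255 (-0.06, limma adjusted p = 0.73). *Men1*, which joins KMT2A and KMT2B to chromatin, was at 302 ± 17.6 and 354 ± 21.1 (SD, n = 3 each) in groups that did not overlap, and was not called (0.23, limma adjusted p = 0.083). After correction the values of *Ash2l*, *Wdr5*, *Rbbp5* and *Men1* lay between -0.01 and 0.03.

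Of the 5 H3K36 methyltransferases, all had positive log2FC values (0.18 to 0.39) as deposited, with *Nsd1* at -0.12 after correction. *Setd2* alone passed the test, where 16.4% of all genes tested were called higher. *Setd2* (ENSMUSG00000044791.9), the enzyme of H3K36 trimethylation in transcribed genes, stood at 140, 113 and 140 in *Ctrl* against 200, 180 and 140 normalized counts in *Tet iTKO* lines, where replicate 3 of *Tet iTKO* equalled the highest *Ctrl* value. Its change of 0.39 ± 0.16 (limma adjusted p = 0.048) ended as a call after correction (0.25, limma adjusted p = 0.24), without *Ctrl* replicate 2, *Tet iTKO* replicate 1 or *Tet iTKO* replicate 2 (0.29, 0.28 and 0.36) and without the variance trend (adjusted p = 0.15). *Nsd3*, an enzyme of H3K36 dimethylation, changed by 0.39 ± 0.16 with an adjusted p of 0.05 that just missed, and it passed without *Ctrl* replicate 2 or *Tet iTKO* replicate 2 (0.45 and 0.50). After correction its value was 0.12 (limma adjusted p = 0.62) and none of the 6 fits without a line called it. *Nsd1*, the most abundant of the group and of the same function, stood at 484, 509 and 550 against 581, 608 and 561 (0.18, limma adjusted p = 0.085). *Nsd2* was not called (0.33, limma adjusted p = 0.15, and 0.28 after correction), with 60 exonic bases shared with *Nelfa* on the other strand. *Ash1l*, the trithorax-group enzyme and the least abundant, stood at 43, 39 and 26 against 49, 54 and 38 in overlapping groups (0.39, limma adjusted p = 0.33, and 0.14 after correction). Its exons share 352 bases with *Dap3* on the other strand, a more abundant gene that fell (-0.26, limma adjusted p = 0.0096, and -0.40 corrected, limma adjusted p = 0.00017).

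None of the 3 H4K20 methyltransferases was called, and their groups overlapped. Over all genes tested 34.8% were called, and 44.1% had groups that did not overlap. *Kmt5c*, which adds the final methyl groups in heterochromatin and was the most abundant, stood at 585, 542 and 618 in *Ctrl* against 645, 663 and 604 normalized counts in *Tet iTKO* lines (0.13 ± 0.08, limma adjusted p = 0.21). *Kmt5b*, its paralog and the least abundant, stood at 82, 78 and 98 against 87, 130 and 107 (0.31 ± 0.19, limma adjusted p = 0.22). *Kmt5a*, the enzyme of the first methyl group, was at 505 ± 37.5 and 529 ± 34.5 (SD, n = 3 each), with a change of 0.07 ± 0.09 (limma adjusted p = 0.58). After correction the values of *Kmt5c*, *Kmt5b* and *Kmt5a* were -0.14, 0.19 and 0.14. Unlike them, *Dot1l* (ENSMUSG00000061589.7), the H3K79 methyltransferase, stood at 289, 250 and 342 in *Ctrl* against 428, 407 and 410 normalized counts in *Tet iTKO* lines. Its change of 0.51 ± 0.11 (limma adjusted p = 0.00023) held in all 6 fits without a line, and after correction it was 0.06 ± 0.10 (limma adjusted p = 0.73).

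In the SMYD family, SET enzymes with a MYND zinc finger, *Smyd5* fell and the others were not called. Over all genes tested 18.4% were called lower. *Smyd5* (ENSMUSG00000033706.7) stood at 871, 932 and 945 in *Ctrl* against 796, 698 and 791 normalized counts in *Tet iTKO* lines, so that each *Tet iTKO* line lay below each *Ctrl* line. The log2FC was -0.27 ± 0.07 (limma adjusted p = 0.0038) and -0.23 ± 0.07 after correction (limma adjusted p = 0.012). The call ended without *Tet iTKO* replicate 2, before (-0.21) and after correction (-0.17, limma adjusted p = 0.11), without the variance trend (adjusted p = 0.089) and under quantile normalization (-0.17, limma adjusted p = 0.071). *Smyd2*, which methylates H3K36 and non-histone proteins, was at 439 ± 67.3 and 387 ± 29.0 (SD, n = 3 each; -0.17, limma adjusted p = 0.2), and passed as lower without *Ctrl* replicate 3 (-0.31, limma adjusted p = 0.021). *Smyd3*, the least abundant, stood at 127, 106 and 131 against 105, 152 and 111, with no difference in mean beside that spread (0.00 ± 0.17, limma adjusted p = 0.99). Corrected, *Smyd2* was at -0.05 and *Smyd3* at -0.15.

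The 2 flavin-dependent demethylases of H3K4 went in opposite directions. *Kdm1a* (ENSMUSG00000036940.9), also known as LSD1 and part of the CoREST and NuRD repressor complexes, stood at 779, 679 and 772 in *Ctrl* against 670, 560 and 614 normalized counts in *Tet iTKO* lines. The highest *Tet iTKO* value lay just below the lowest *Ctrl* value, and the log2FC was -0.27 ± 0.08 (limma adjusted p = 0.0073), or -0.28 ± 0.08 after correction (limma adjusted p = 0.006). *Kdm1b* (ENSMUSG00000038080.9), the homolog that acts in oocytes and in transcribed gene bodies, stood at 72, 69 and 80 against 104, 87 and 125 and rose by 0.50 ± 0.20 (limma adjusted p = 0.048). The ratio of *Kdm1a* to *Kdm1b* within a library, which a scaling factor of that library does not change, was 10.8, 9.84 and 9.65 in *Ctrl* and 6.44, 6.44 and 4.91 in *Tet iTKO* lines. The call of *Kdm1a* ended without *Tet iTKO* replicate 2 (-0.21, limma adjusted p = 0.074, and -0.22, limma adjusted p = 0.066, after correction), without the variance trend (adjusted p = 0.12) and under quantile normalization (-0.19, limma adjusted p = 0.062). That of *Kdm1b* ended after correction (0.50, limma adjusted p = 0.059) and without the variance trend (adjusted p = 0.066). It also ended in 4 of the 6 fits without a line (without *Ctrl* replicates 1 and 2 and *Tet iTKO* replicates 1 and 3, at 0.48, 0.45, 0.50 and 0.37). Exons of *Kdm1b* share 505 bases with *Dek* on the other strand, a gene that was called lower (-0.24, limma adjusted p = 0.0077) but not after correction (0.05, limma adjusted p = 0.63).

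Of the JmjC demethylases of H3K4, *Kdm5b* (ENSMUSG00000042207.10), which is abundant in mESC and removes di- and trimethylation, stood at 1247, 1309 and 1297 in *Ctrl* against 1585, 1619 and 1506 normalized counts in *Tet iTKO* lines. The lines of a group lay close together, and a log2FC of 0.29 ± 0.06 was called (limma adjusted p = 0.00019, and in all 6 fits without a line). After correction it was 0.04 ± 0.06 (limma adjusted p = 0.64). *Kdm5a* (ENSMUSG00000030180.9), the paralog found through its binding to the retinoblastoma protein, stood at 228, 222 and 252 against 190, 217 and 210, values that all lay lower in *Tet iTKO* lines but were not called (-0.19 ± 0.12, limma adjusted p = 0.25). After correction *Kdm5a* was called lower at -0.36 ± 0.12 (limma adjusted p = 0.023), a call that ended without *Ctrl* replicate 3 (-0.32) or *Tet iTKO* replicate 1 (-0.31). Of its exonic bases 251 are shared with *Ccdc77* on the other strand. Within libraries *Kdm5b* exceeded *Kdm5a* 5.47, 5.90 and 5.15 times in *Ctrl* and 8.34, 7.46 and 7.17 times in *Tet iTKO* lines, groups that did not overlap.

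Among the demethylases of H3K9, *Kdm3a* fell. *Kdm3a* (ENSMUSG00000053470.6), which removes mono- and dimethylation of H3K9 and is known for its place in spermatogenesis and the self-renewal of mESC, stood at 764, 703 and 634 in *Ctrl* against 568, 524 and 569 normalized counts in *Tet iTKO* lines. All *Tet iTKO* lines lay below all *Ctrl* lines, with a log2FC of -0.34 ± 0.08 (limma adjusted p = 0.0013) and of -0.35 ± 0.08 after correction (limma adjusted p = 0.0008). It was called in all 6 fits without a line before and after correction (-0.41 to -0.27 and -0.42 to -0.30), though not without the variance trend (adjusted p = 0.064). Its relatives had positive values and were not called. *Jmjd1c*, the least abundant of the group, stood at 184, 210 and 183 against 265, 215 and 218 (0.27 ± 0.13, limma adjusted p = 0.099, and 0.15 after correction), and *Kdm3b* was at 230 ± 44.0 and 275 ± 43.0 (SD, n = 3 each; 0.26 ± 0.13, limma adjusted p = 0.13). *Kdm3b* passed as higher without *Ctrl* replicate 3 (0.39) or *Tet iTKO* replicate 1 (0.40), and its corrected value was -0.03.

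The KDM4 enzymes remove trimethylation of H3K9 and H3K36. *Kdm4c* (ENSMUSG00000028397.7), the most abundant of the 3, stood at 270, 220 and 287 in *Ctrl* against 313, 346 and 363 normalized counts in *Tet iTKO* lines, which all lay above the *Ctrl* lines. It rose by 0.40 ± 0.11 (limma adjusted p = 0.0049), and by 0.47 ± 0.11 after correction (limma adjusted p = 0.0015). Corrected, it was called in all 6 fits without a line (0.36 to 0.56), while the call on the values as deposited ended without *Ctrl* replicate 2 (0.29, limma adjusted p = 0.061) and without the variance trend (adjusted p = 0.076). *Kdm4a* (ENSMUSG00000033326.9), the least abundant, stood at 73, 49 and 32 against 105, 63 and 76 in overlapping groups. Its value of 0.70 ± 0.26 was called (limma adjusted p = 0.036), but not after correction (0.49, limma adjusted p = 0.17) or without the variance trend (adjusted p = 0.19). The call also ended without *Ctrl* replicate 2, *Ctrl* replicate 3, *Tet iTKO* replicate 1 or *Tet iTKO* replicate 3 (0.70, 0.41, 0.50 and 0.73). After correction *Kdm4a* was called without *Ctrl* replicate 1 (0.78, limma adjusted p = 0.038). *Kdm4b* stood at 107, 94 and 57 against 120, 86 and 64 (0.07, limma adjusted p = 0.85, and -0.32 after correction), and was called lower in the corrected fit without *Ctrl* replicate 3 alone (-0.61, limma adjusted p = 0.047).

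Of the other 6 JmjC proteins, *Kdm2a* and *Kdm6b* were called higher, where 16.4% of all genes tested were. *Kdm2a* (ENSMUSG00000054611.8), an H3K36 demethylase with a CXXC zinc finger that binds unmethylated CpG, stood at 135, 157 and 136 in *Ctrl* against 232, 238 and 228 normalized counts in *Tet iTKO* lines, which lay close together and far from the *Ctrl* lines. The log2FC was 0.70 ± 0.13 (limma adjusted p = 6.4e-05) and 0.45 ± 0.13 after correction (limma adjusted p = 0.01), and all 6 fits without a line called it both ways (0.67 to 0.78 and 0.39 to 0.53). *Kdm6b* (ENSMUSG00000018476.7), a demethylase of H3K27, stood at 401, 373 and 368 against 563, 632 and 636, a change of 0.68 ± 0.09 (limma adjusted p = 9.7e-08). After correction it was 0.16 ± 0.09 (limma adjusted p = 0.18). The ratio of *Kdm6b* to *Kdm6a*, its X-linked paralog, was 2.43, 3.24 and 2.85 in *Ctrl* and 4.90, 5.18 and 4.97 in *Tet iTKO* lines. *Kdm6a* itself was at -0.15 before and -0.16 after correction and was not called (limma adjusted p = 0.53 both times), so the corrected values of the pair lay closer together. Of the 6 ratios of paralogs taken, those of *Kdm3a* to *Kdm3b*, *Kdm4c* to *Kdm4a* and *Smyd5* to *Smyd2* overlapped between groups. All these ratios are of values as deposited.

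*Phf8*, a demethylase of H3K9 and H4K20, stood at 86, 63 and 61 against 82, 98 and 96 and was not called (0.40, limma adjusted p = 0.13, and 0.21 after correction). *Kdm8* stood at 22, 13 and 41 in *Ctrl* against 67, 34 and 28 normalized counts in *Tet iTKO* lines, and this wide, overlapping spread left 0.78 ± 0.38 without a call (limma adjusted p = 0.11, and 0.76 after correction), except without *Ctrl* replicate 3 before (1.19) and after correction (1.16). *Kdm7a*, which removes methylation of H3K9 and H3K27, stood at 13, 18 and 3 against 9, 19 and 10 (0.35 ± 0.61, limma adjusted p = 0.69, and 0.30 after correction). *Phf2*, a demethylase of H3K9, had the lowest counts in *Ctrl* lines, 6, 4 and 1 in *Ctrl* and 11, 9 and 20 in *Tet iTKO* lines. Its groups did not overlap, but with a mean under 10 it was not tested. At such counts a difference the size of that in most other genes was not detectable.

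Per kilobase of the longest transcript, the scale on which levels of different genes can be set side by side, *Dpy30* stood highest in *Ctrl* at 2203 ± 16.1 (SD, n = 3) normalized counts per kb, followed by *Wdr5* at 657 ± 39.6 and *Ash2l* at 581 ± 15.3. *Rbbp5*, the remaining core subunit, was at 82.5 ± 11.9. The H3K4 methyltransferases that share this core had between 4.72 ± 0.20 (*Kmt2a*) and 14.2 ± 1.39 (*Setd1a*), with *Kmt2b* at 14.2 ± 1.42, which does not differ from *Setd1a* beyond the spread. *Setd7* and *Phf2* were lowest, at 0.85 ± 0.47 and 0.67 ± 0.46. Among demethylases *Kdm1a* led at 245 ± 18.4, ahead of *Kdm5b* at 147 ± 3.77 and *Kdm3a* at 144 ± 13.4, and these last do not differ beyond their spread. In *Tet iTKO* lines *Dpy30* was at 1518 ± 94.9, still above the other genes of the list, *Setd7* at 4.77 ± 1.71 and *Kdm3a* at 114 ± 5.30.

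**Figure D4:**
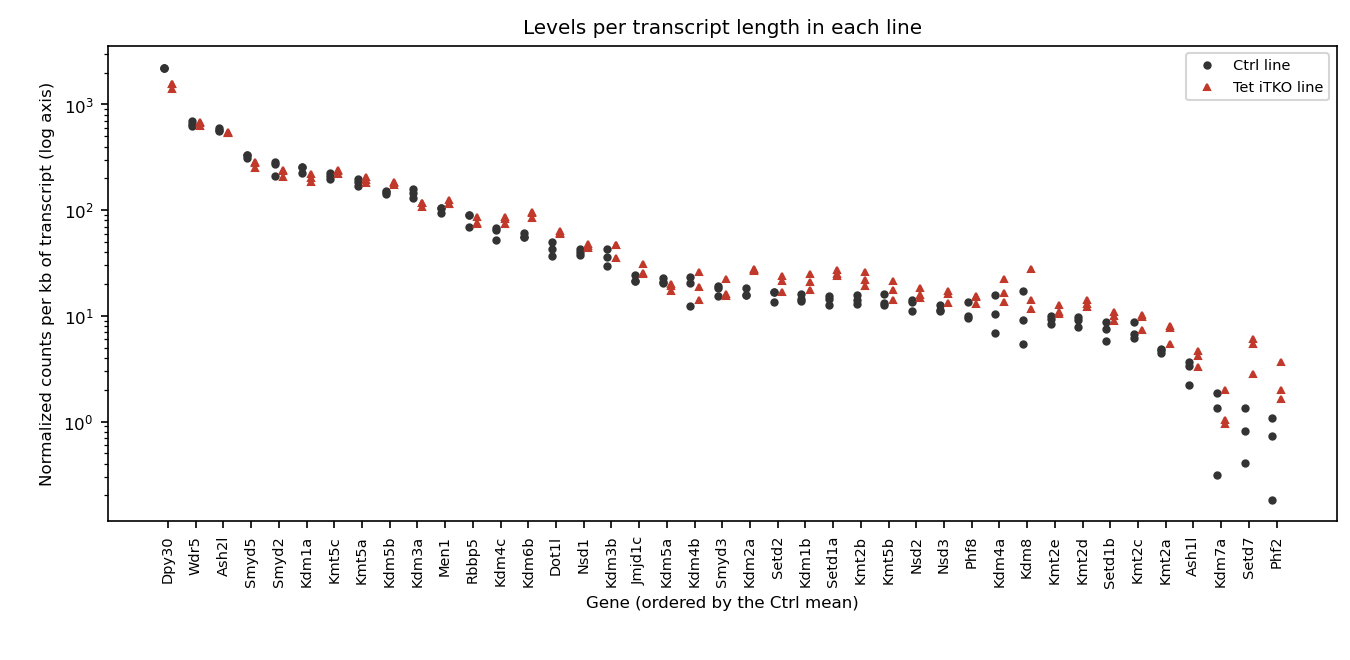
Normalized counts per kb of the longest annotated transcript (log axis) for the 41 genes, ordered by the *Ctrl* mean, with 1 point per line (circles, *Ctrl*; triangles, *Tet iTKO*). *Dpy30*, *Wdr5* and *Ash2l* stand at the high end and *Kdm7a*, *Setd7* and *Phf2* at the low end, where the points of a group spread most.

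A further list of 40 genes of lysine methylation that are not among the 41, made of partner subunits and of enzymes acting on H3K4, H3K9, H3K27 and H3K36, served as context. Of these, 36 were tested, 6 were called higher and 4 lower (27.8%, beside 34.8% of all genes tested), with a median log2FC of 0.19. After correction 6 were called higher and 3 lower (25%, beside 26.5% of all genes corrected), of which 4 were called both ways. *Smyd4*, the relative of *Smyd5*, had the largest fall, at 219, 194 and 184 in *Ctrl* against 103, 117 and 124 normalized counts in *Tet iTKO* lines (-0.79, limma adjusted p = 5.9e-05, and -0.83 corrected, limma adjusted p = 3.8e-05). *Bod1*, a mitotic phosphatase regulator, and *Ezh2*, the main H3K27 methyltransferase, fell by 0.39 and 0.30 on the log2 scale (limma adjusted p = 0.0031 and 0.0014), calls that ended after correction (-0.26 and -0.14). Among the genes called, the largest rises were those of *Ncoa6*, a subunit of the KMT2C and KMT2D complexes (0.71, limma adjusted p = 0.0023), and *Ezh1*, the paralog of *Ezh2* (0.52, limma adjusted p = 0.033). *Setdb1*, an H3K9 methyltransferase, rose by 0.48 (limma adjusted p = 9.7e-05). The call of *Ezh1* held in 1 of the 6 fits without a line. Corrected, *Ncoa6* and *Setdb1* were still called (0.48 and 0.35), in 2 and 5 of the 6 fits without a line, and *Ezh1* was not (0.41, limma adjusted p = 0.11).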

How the data were processed

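The submitters' processing notes name STAR, HTSeq 0.7.1, DESeq2 1.26.0 and the mouse build mm9. Per the methods of the study, paired reads of 50 bases were kept where they aligned uniquely and were counted per gene with the strand option on. Smart-Seq2 does not mark strand, so reads of a gene and of a gene overlapping it on the other strand cannot be told apart. The authors divided the counts by DESeq2 size factors and rounded them, so the deposited column is treated as a score and tests made for read counts were not used. No molecular identifiers mark single molecules here, and the floor of 3 normalized counts covers counting error only.

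The *Ctrl* and *Tet iTKO* groups were taken from the sample labels. The test was limma 3.58.1 under R 4.3.3 (lmFit and trended eBayes) on log2(normalized count + 1), and genes whose mean was under 10 were left out. P-values were adjusted over all genes tested by the Benjamini-Hochberg procedure. In low genes a fold change on this scale can lie above or below that of the group means. Symbols, lengths and GC contents came from GENCODE M21 of GRCm38 for 20775 of 22380 identifiers. The correction subtracted from each library a robust loess (span 0.3) of its deviations from the gene mean on GC content and log2 length. The robust form was chosen after a least squares form, kept as an alternative, had shifted the median of all genes. The alternatives were pseudocounts of 0.5 and 4, no filter, a mean of at least 50, TMM rescaling, quantile normalization, no variance trend, length alone, a block for the replicate number and fits without each line in turn. The fits were tested on simulated data. Values were given in every line for genes called, for the highest and the lowest of each role group, and for *Phf8*, *Kdm8*, *Kdm7a* and *Kdm4b*, named after their values were seen. The members and lists were chosen with earlier results of these data known. Tables and figures used Python 3.11.15, pandas 2.3.3, NumPy 2.4.6, SciPy 1.17.1 and matplotlib 3.10.9. Other assays of the study were not analysed here.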

Additional observations from a re-analysis of the deposited data

How the results depend on the processing

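Where the main fit called 13 genes higher and 4 lower, limma called the same genes with a pseudocount of 4 or TMM rescaling. With a pseudocount of 0.5 it called 14 and 4, adding *Nsd3*. A mean of at least 50 also gave 13 and 4, but not the same genes. There *Setd7* was too low to be tested and *Nsd3* was added (0.39, limma adjusted p = 0.045). Without a filter 9 and 4 were called, since *Kmt2a*, *Setd2*, *Kdm1b* and *Kdm4a* no longer passed. Quantile normalization called 13 and 2, ending the calls of *Setd2*, *Smyd5*, *Kdm1a*, *Kdm1b* and *Kdm4a* and adding *Kmt5c*, *Nsd1* and *Men1*, and reversed *Smyd3* -0.019, *Ash2l* 0.029, *Kdm4b* -0.008 and *Kdm7a* -0.20. Without the variance trend 8 and 1 were called, and 1075 higher and 1217 lower over all genes tested. Over all genes tested the main fit called 1731 higher and 1934 lower. The pseudocounts of 0.5 and 4 and TMM rescaling gave 1724 and 1929, 1759 and 1952, and 1723 and 1945. Without a filter these counts were 1582 and 1627, and under quantile normalization 1795 and 1761. They were 1332 and 1880 with a mean of at least 50. The cause of these differences was not tested.

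Length correction alone called 7 higher (*Kmt2b*, *Setd1a*, *Setd7*, *Dot1l*, *Kdm2a*, *Kdm4c* and *Kdm6b*) and 6 lower (*Smyd5*, *Ash2l*, *Dpy30*, *Kdm1a*, *Kdm3a* and *Kdm5a*). Over all genes tested it called 1609 higher and 1598 lower. It reversed *Nsd1* (-0.045), *Smyd3* (-0.17) and *Kdm4b* (-0.016). The calls of *Kmt2b*, *Setd1a*, *Dot1l*, *Kdm6b* and *Dpy30* thus ended only with GC content in the correction. The GC content and length correction called 3 and 4 and reversed *Kmt2c* -0.028, *Kmt2d* -0.21, *Setd1b* -0.18, *Kmt5c* -0.14, *Nsd1* -0.12, *Smyd3* -0.15, *Rbbp5* 0.007, *Dpy30* 0.014, *Kdm3b* -0.029 and *Kdm4b* -0.32. The replicate numbers of the labels were not taken to pair the lines, since deviations of lines with the same number were uncorrelated (-0.005 to 0.001). The paper describes 3 independent experiments, and these correlations cannot tell whether lines of the same number were handled together. The replicate block left 13 and 4 calls, or 3 and 4 with the correction and the same reversals (*Kmt2c* -0.028, *Kmt2d* -0.21, *Setd1b* -0.18, *Kmt5c* -0.14, *Nsd1* -0.12, *Smyd3* -0.15, *Rbbp5* 0.007, *Dpy30* 0.014, *Kdm3b* -0.029 and *Kdm4b* -0.32), and moved the calls over all genes tested to 1762 higher and 1980 lower. The choice of the robust form of the correction over the least squares form was made after seeing the data. The least squares form called 3 and 7, and 1014 higher and 2068 lower over all genes tested, with 3 higher and 6 lower in the further list of 40 genes. Of the genes listed next, this form called *Kmt2d*, *Kmt5c* and *Nsd1* lower (limma adjusted p = 0.015, 0.0047 and 0.049), though *Kmt2d* was called higher as deposited. It reversed *Kmt2a* -0.040, *Kmt2b* -0.17, *Kmt2c* -0.12, *Kmt2d* -0.39, *Setd1b* -0.40, *Kmt5c* -0.29, *Nsd1* -0.21, *Dot1l* -0.10, *Smyd3* -0.22, *Wdr5* -0.055, *Dpy30* 0.017, *Men1* -0.093, *Kdm3b* -0.13, *Kdm4b* -0.47, *Kdm5b* -0.049 and *Kdm6b* -0.029.

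Without each line in turn, limma called 9 to 14 higher and 2 to 5 lower, and with the correction 3 to 4 and 2 to 5. Over all genes tested these fits called 1321 to 1655 higher and 1641 to 1728 lower as deposited. With the correction they called 939 to 1192 higher and 1162 to 1263 lower. In the further list 4 to 8 were called higher as deposited and 2 to 5 with the correction, and 3 to 4 lower in both. Over the 6 fits as deposited and the 6 corrected, the direction changed in at least 1 fit for *Rbbp5* -0.18 to 0.068, *Smyd3* -0.31 to 0.10, *Wdr5* -0.027 to 0.070, *Kdm4b* -0.61 to 0.29, *Kdm7a* -0.38 to 0.80, *Kmt2d* -0.36 to 0.62, *Setd1b* -0.31 to 0.59, *Kmt5c* -0.20 to 0.18, *Nsd1* -0.16 to 0.23, *Smyd2* -0.30 to 0.024, *Kdm3b* -0.17 to 0.40, *Kmt2b* -0.029 to 0.76, *Kmt2c* -0.14 to 0.48, *Dot1l* -0.050 to 0.62, *Ash2l* -0.12 to 0.017, *Dpy30* -0.57 to 0.061, *Ash1l* -0.091 to 0.53, *Kmt2a* -0.039 to 0.72 and *Men1* -0.018 to 0.25. *Phf2* was too low to test under the filters, and genes with few counts (*Setd7*, *Kdm7a*, *Kdm8*) have the widest errors.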
